A study of Mus musculus with 4 samples.

Results

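The genes described here encode core proteins of the major spliceosome. They were chosen by name as 43 genes, and reads under the gene's own identifier were found for 42 of them among 14949 genes with an entry. By role they comprised 3 proteins of the U1 snRNP, 7 Sm proteins, 11 of the U2 snRNP, 2 of U2AF, 4 of the U5 snRNP, 8 of the U4/U6 and tri-snRNP, 5 of the Prp19 complex and its partners, and 3 DEAH helicases.

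RNA was read as PCR-amplified cDNA on a Nanopore long-read sequencer in primary mouse neural stem cells of embryonic neocortex, with 4 libraries, 1 per genotype. The cells were grown as neurospheres and all were given a lipid nanoparticle (LNP), for 3 days where the design gives a time. The control was Tut1f/f, in which Tut1 carries loxP sites, given empty LNP. The library labelled Tut1 KO was Tut1f/f given LNP with Cre mRNA, P53 KO was Trp53f/f (written p53f/f in the labels) with Cre mRNA, and Tut1 and P53 KO was Tut1f/f;Trp53f/f with Cre mRNA. The control differed from the other 3 libraries in Cre delivery as well as in genotype, and there was no Trp53f/f library without Cre, so deletion and Cre delivery cannot be told apart in any comparison with the control. With 1 library per group no difference has a replicate check, and intervals cover counting error only. Amplified copies of 1 molecule cannot be told from separate molecules here, so intervals and tests on reads can be too narrow even for that.

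Splicing is carried out on each intron by small nuclear ribonucleoproteins (snRNPs), each an RNA with its own proteins. The U1, U2, U4 and U5 RNAs carry a ring of Sm proteins and U6 a related ring of LSm proteins. U1 binds the 5′ splice site, U2AF and U2 the 3′ end of the intron and its branch point, and then the tri-snRNP of U4, U6 and U5 joins. U6 takes over the 5′ splice site from U1, U4 is unwound from U6, the Prp19 complex enters, and DEAH helicases drive the later remodelling steps. The enzyme encoded by Tut1 extends the tail of U6 snRNA with uridines, and the study asked whether its loss changes mRNA splicing.

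The libraries held 3936827 to 5125888 reads, of which 2863392 to 4244467 named a gene. Tut1 had 37 reads in the control, 11 in Tut1 KO, 14 in P53 KO and 27 in Tut1 and P53 KO. The last was close to the control (log2 ratio -0.03, 95% interval -0.81 to 0.72). P53 KO, which the comparisons by Tut1 label take as Tut1-intact, was about as low in Tut1 as Tut1 KO, at 4.10 against 3.66 CPM, with 9.22 in the control (log2 ratio of P53 KO to the control -1.17, 95% interval -2.17 to -0.25). Gene totals do not show whether the deleted exon was read, so they do not settle the Tut1 labels. The study reports efficient deletion, measured on that exon, in Tut1f/f cells given Cre mRNA. Trp53 had 175, 67, 10 and 19 reads in the same order. Xist was read in Tut1 KO and P53 KO and was at 0 in the other pair of libraries, while the Y-linked Ddx3y, Eif2s3y and Kdm5d were read in the control and in Tut1 and P53 KO and at 0 in the other pair. Tut1 KO against the control and Tut1 and P53 KO against P53 KO thus both cross this split, in opposite directions. In each of them Tut1 status and the split cannot be told apart. Of 10 neural stem cell markers 9 were detected in each library, with Notch1 at 0, and their summed level lay between 11818 and 13168 CPM (counts per 1e6 gene reads). Singly they were less even, with a median log2 ratio to the control of 0.86 in Tut1 KO, 0.91 in P53 KO and 0.34 in Tut1 and P53 KO, and the part of this in the members' ratios was not tested. All 6 endothelial and mural markers were at 0, as were all 5 fibroblast markers apart from 1 read in P53 KO, and of 6 microglial markers P2ry12 alone was read. In a bulk library fewer cells of a type and less RNA per cell cannot be told apart.

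In Prpf31 and Sf3b3 the isoform that gained share in Tut1 KO and in P53 KO was an Ensembl transcript annotated as a retained intron, meaning that an exon runs on past a 5′ splice site that protein-coding transcripts use. The sites shown lie in these isoforms and in 3 others of that class with at least 20 reads that are described with them, each a site that coding transcripts of the same gene use. Each window has 10 exon bases and 20 intron bases in transcript orientation, with the first 6 intron bases, where U1 and then U6 pair, in capitals. The sequences are from the GENCODE M21 transcripts, on GRCm38.
Prpf31 (chr7:3630896-3630925, plus strand): gtgtcggaagGTGCCTcccaccctcacttt
Sf3b3 (chr8:110846655-110846684, minus strand): ttgcagcaggGTAAAGaagtggcctcccag
Ddx23 (chr15:98658210-98658239, minus strand): ctgtagagagGTAAAGtggctctttgtctg
Snw1 (chr12:87472228-87472257, minus strand): cgctcaccagGTGGGTtgttgatttgggtc
Sf3b1 (chr1:55016356-55016385, minus strand): tttgcagatgGTAATTctttcccacttttc
In the Sf3b1 isoform the whole intron of 1813 bases lay inside the exon. In the other 4 the exon ran 516 bases (Prpf31), 1356 bases (Sf3b3), 337 bases (Ddx23) or 457 bases (Snw1) into the intron and ended there.

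The members' median in gene counts lay near that of all genes, while a few members differed several-fold between libraries and in both directions: Snrpb, Eftud2 and Prpf19 were low and Sart1 and Snrnp200 high in every Cre library. A gene was counted as different between 2 libraries when its CPM, scaled by TMM, differed at least 2-fold and the exact 95% interval of the ratio excluded no change. In Tut1 KO against the control, 3 of 42 members were counted as higher (13.1% of all 9882 genes tested were) and 4 as lower (12.8%), and the members' median log2 ratio was -0.01 against 0.02 over all genes. In Tut1 and P53 KO against P53 KO, which share neither library with the first comparison, 4 were higher (4.07% of all genes) and 0 lower (3.0%), with a median of 0.13 against -0.02, and 34 of 42 members had a ratio above 0 against 4795 of 9882 genes.

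In P53 KO against the control 2 members were higher (13.2% of all genes) and 5 lower (14.3%), with a median of -0.00 against 0.02 over all genes. In Tut1 and P53 KO against the control 5 were higher (10.1%) and 3 lower (9.94%), with a median of 0.10 against -0.02. Both comparisons use the control library of the first one, so the 3 are not independent of each other. With gene reads in place of TMM scaling, the median of all genes moved to 0.12 for Tut1 KO and for Tut1 and P53 KO against the control, and 63.1% of all genes counted as different in the latter were higher, against 50.4% with TMM. For Tut1 and P53 KO against P53 KO that share was 68.6% against 57.6%.

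**Figure D1:**
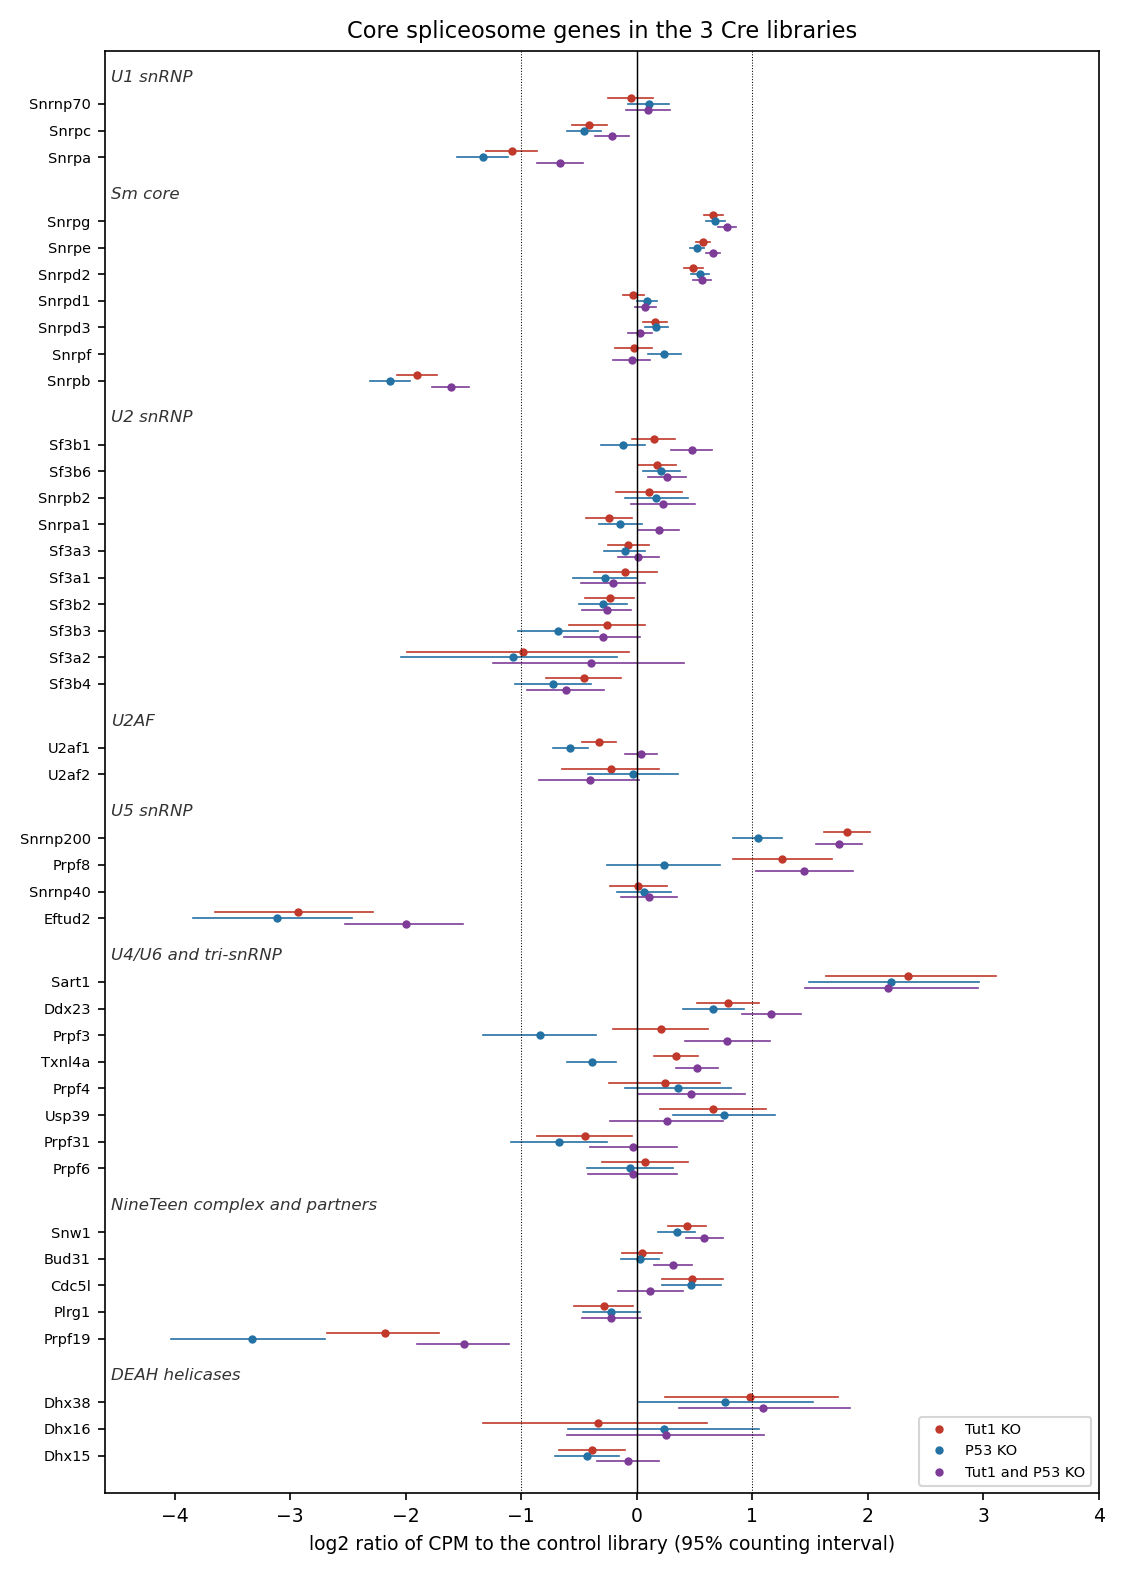
The log2 ratio of CPM to the control library is plotted for 42 spliceosome genes, grouped by role, with points for the 3 Cre libraries and bars for exact 95% counting intervals. Most points lie between the dotted lines that mark a 2-fold difference, with Eftud2, Prpf19 and Snrpb far to the left and Sart1 and Snrnp200 to the right.

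The order of the 4 libraries was also read by Tut1 label. Both libraries labelled as Tut1-deleted lay above both others for 10 of 42 members (13.7% of all genes) and below both for 2 (14.3%). The 10 were Prpf8, Snrnp200, Prpf3, Ddx23, Txnl4a, Sf3b1, Snrpe, Snw1, Bud31 and Dhx38, while the 2 were Snrpf and U2af2. All 3 Cre libraries lay above the control for 17 members (37.3% of all genes) and below it for 14 (36.8%). In the additive model of Tut1 and Trp53 status (edgeR's quasi-likelihood test), which has 1 residual degree of freedom, no member passed a false discovery rate of 0.05 with a 2-fold change. It called 0.0% of 9882 genes for Tut1 status and 0.0101%, a single gene that is not a member, for Trp53 status. Unadjusted p-values under 0.05 for Tut1 status numbered 171 genes, 2 of them members, Snrnp200 (log2 fold change 1.26, SE 0.47) and Prpf8 (1.24, SE 0.56). With DESeq2 no gene was called for Tut1 status either, and 70 had an unadjusted p under 0.05.

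The U1 snRNP recognizes the 5′ splice site first. Snrpa, which binds a stem loop of U1 snRNA, was at 164 CPM in the control, 77.4 in Tut1 KO, 65.0 in P53 KO and 103 in Tut1 and P53 KO. All 3 Cre libraries were below the control, at log2 ratios of -1.08, -1.33 and -0.66, and the last was under a 2-fold difference. Snrpa did not pass the threshold in Tut1 KO when gene reads replaced TMM scaling. Snrpc, which steadies the contact of U1 with the 5′ splice site, was lower by less than 2-fold in each, and Snrnp70, the U1-70K protein, was at 128 to 143 CPM in all 4 libraries.

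Among the Sm proteins, Snrpb, which encodes SmB/B′, stood apart from the other 6. It was at 410.5 CPM (95% interval 391 to 431) in the control, 110.0 in Tut1 KO, 93.6 in P53 KO and 135 in Tut1 and P53 KO, with log2 ratios to the control of -1.90, -2.13 and -1.61. Its intervals in the Cre libraries did not reach that of the control, and Tut1 and P53 KO exceeded P53 KO by 0.52, under a 2-fold difference. Between 87.3% and 92.2% of its reads were ENSMUST00000103199, a protein-coding transcript.

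Snrpe, Snrpg and Snrpd2 were higher in each Cre library by less than 2-fold. Snrpe was at 936 CPM in the control and at 1395, 1346 and 1478 in Tut1 KO, P53 KO and Tut1 and P53 KO. Snrpd1, Snrpd3 and Snrpf differed from the control by at most 0.24 on the log2 scale. Reads of Snrpg are uncertain, because the pseudogene Gm8186 matched its transcript at 100% identity and took 2499, 2623, 3241 and 2536 reads against 2171, 2577, 2960 and 2789 for Snrpg. For the sum of both, the log2 ratio to the control was 0.57, 0.64 and 0.61 in the 3 Cre libraries. Of the 42 members 17 had a pseudogene copy in the annotation at 90% identity or more over at least 50% of the copy, of which Gm2991, a copy of Snrpc, took 96, 60, 73 and 37 reads. Apart from Gm8186 and Gm2991, no copy had more than 8 reads under its own gene identifier in a library. Reads without a gene name were also placed at copies, 58, 59, 72 and 49 of them for Snrpf, 80, 77, 61 and 31 for Snrpc, and at most 15 in a library for any other member.

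The U2 snRNP binds the branch point. Of its 10 members with named reads 0 were counted as different in Tut1 KO against the control (13.1% of all genes were higher and 12.8% lower), with a range of log2 ratios from -0.99 to 0.18. Sf3b3 had log2 ratios to the control of -0.26 in Tut1 KO and -0.68 in P53 KO. With plain Ensembl transcripts alone these turned to 1.70 and 1.49 and it was counted as higher in both, its 1 plain isoform with at least 10 reads being the retained-intron transcript described below. With reads without a gene name in its gene body added, the ratios were 0.63 (0.37 to 0.88) and 0.30 (0.04 to 0.56), under a 2-fold difference. The direction for Sf3b3 thus depends on which reads are counted. Sf3b4, which tethers U2 near the branch point, had the largest ratio of those with at least 20 reads in each library, at 57.0 CPM in the control and 41.5, 34.5 and 37.3 in the Cre libraries. Sf3a2 was counted as lower in P53 KO alone, on 37 reads in the control and 15 in P53 KO, and not with gene reads in place of TMM scaling. Sf3b1, the subunit that clasps the branch-point helix, was at 129, 142, 119 and 179 CPM in the order control, Tut1 KO, P53 KO and Tut1 and P53 KO.

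Sf3b5 had no entry under its gene identifier. It is the 1 member with a single exon in every annotated transcript, and 16.9% of 1344 such protein-coding genes had a named entry, against 52.97% of 20684 with more exons. An entry without a gene name, placed to the nearest 1000 bases inside the gene (chr10:13005343-13009183, plus strand), held 1742, 1098, 1119 and 1114 reads, which is 434, 365, 327 and 371 CPM. The level was highest in the control, by less than 2-fold.

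U2AF marks the polypyrimidine tract and the AG at the intron's end. U2af1, the small subunit, was at 247, 197, 166 and 253 CPM, and the 4 libraries thus spanned less than a 2-fold range. Its main transcript, ENSMUST00000014684, held 66.1% to 68.5% of its reads and its alternative ENSMUST00000166526 held 10.8% to 13.7%, with overlapping 95% Wilson intervals in all 4 libraries for each. U2af2, the large subunit, was at 23.7 to 31.4 CPM.

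The U5 snRNP holds the exons at the catalytic centre, and of its 4 members 2 were counted as higher and 1 as lower in Tut1 KO against the control (13.1% and 12.8% of all genes). Prpf8, the scaffold of the active site, was at 18.2 CPM in the control, 43.5 in Tut1 KO, 21.4 in P53 KO and 49.7 in Tut1 and P53 KO. Both libraries labelled Tut1-deleted were high and the other pair was low, with a log2 ratio of 1.26 (95% interval 0.84 to 1.69) in Tut1 KO against the control and 1.22 (0.80 to 1.64) in Tut1 and P53 KO against P53 KO. Between 96.0% and 100% of the reads of Prpf8 were a single isoform named by a read, so Prpf8 could not be counted from plain Ensembl transcripts.

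Snrnp200 encodes the helicase that unwinds U4 from U6. It was at 73.0 CPM in the control, 257 in Tut1 KO, 151 in P53 KO and 246 in Tut1 and P53 KO. All 3 Cre libraries were at least 2-fold above the control (log2 ratios 1.82, 1.05 and 1.75). Tut1 and P53 KO exceeded P53 KO by 0.71 (0.54 to 0.87), under a 2-fold difference but with an interval above 0. At least 99.6% of its reads in each library were ENSMUST00000103220, a protein-coding transcript.

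Eftud2, the GTPase of U5, went the other way. It was at 53.3 CPM in the control, 6.98 in Tut1 KO, 6.15 in P53 KO and 13.3 in Tut1 and P53 KO, on 214, 21, 21 and 40 reads. It was 7.64-fold lower in Tut1 KO than in the control (log2 ratio -2.93, 95% interval -3.65 to -2.28), and 2.17-fold higher in Tut1 and P53 KO than in P53 KO (1.12, 0.32 to 1.95). Eftud2 also had reads without a gene name in its gene body, 11 in the control, 22 in Tut1 KO and 18 in P53 KO. With these added, a step chosen after the values were seen, it was 3.92-fold lower in Tut1 KO (log2 ratio -1.97) and -2.30 in P53 KO, and Tut1 and P53 KO exceeded P53 KO by 0.78, which was not counted as different. Snrnp40, a WD-repeat protein of U5, was at 79.0 to 85.0 CPM throughout.

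**Figure D2:**
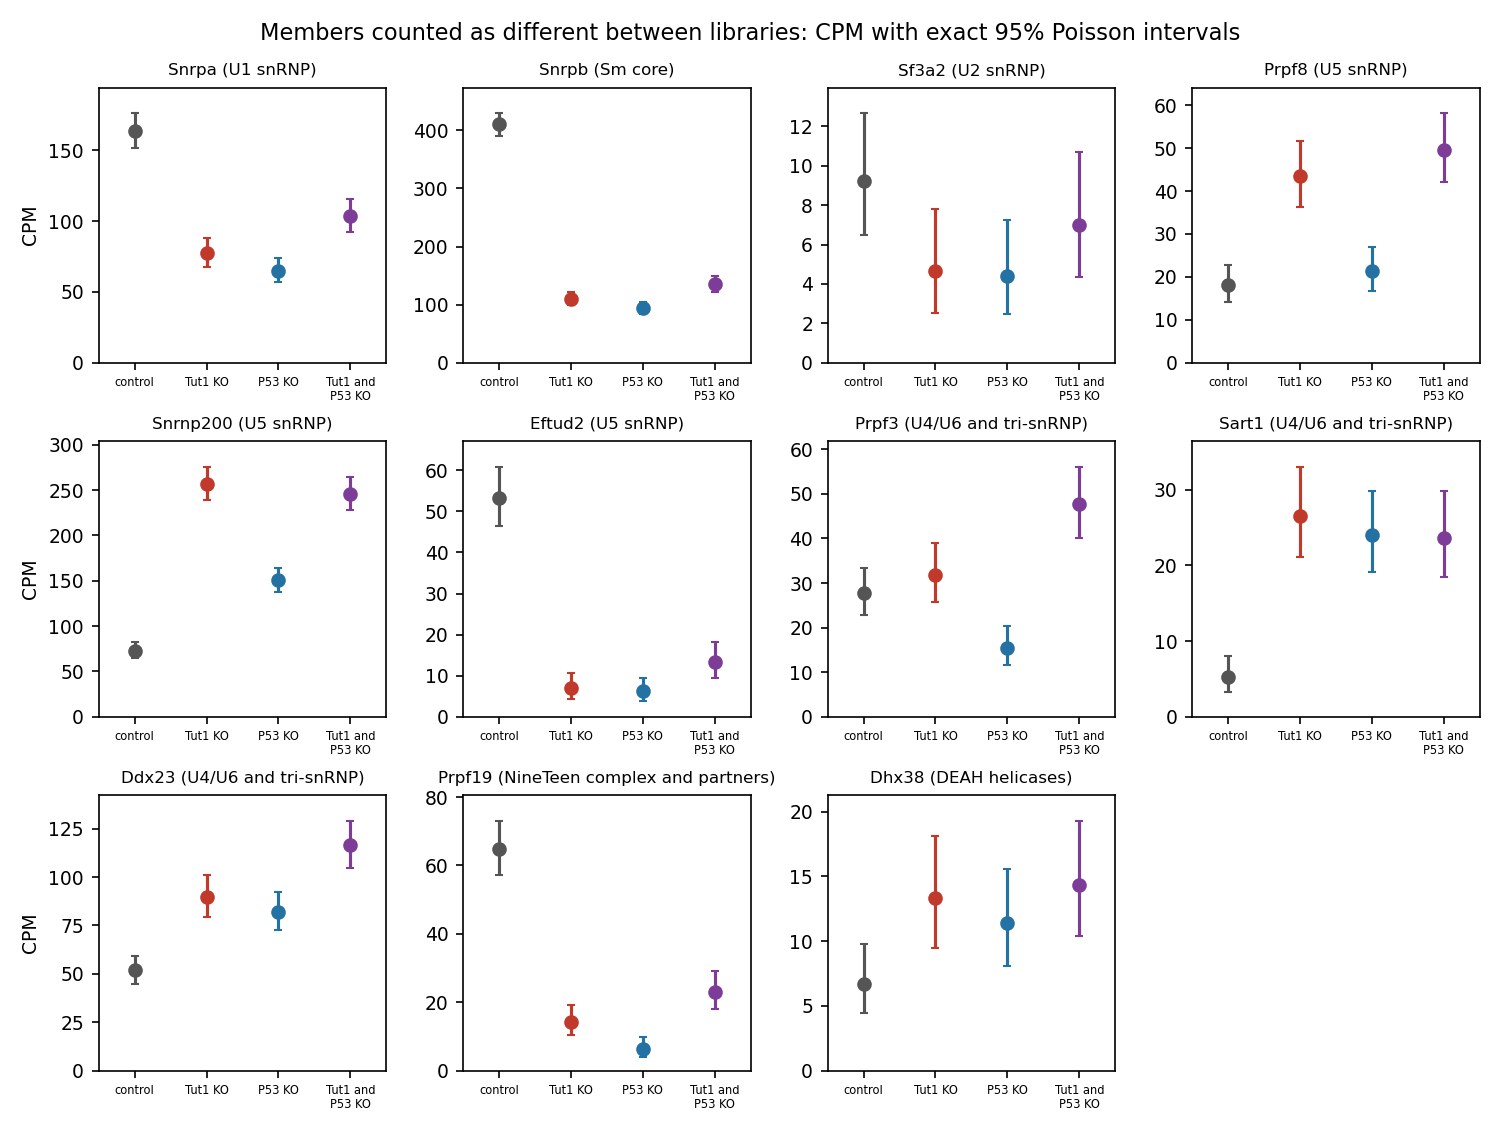
CPM of the 11 spliceosome genes counted as different in at least 1 of the 4 comparisons, 1 panel per gene on a linear axis that starts at 0, with exact 95% Poisson intervals for each library. Snrpb, Eftud2 and Prpf19 are high in the control alone, Sart1 is low in the control alone, and Prpf8 is high in both libraries labelled Tut1-deleted.

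The tri-snRNP proteins carry U6 to the spliceosome. Sart1, which anchors U4/U6 to U5, had 21 reads in the control and 80, 82 and 71 in the Cre libraries, or 5.23 CPM against 26.6, 24.0 and 23.7. The 3 Cre libraries lay close together, at log2 ratios of 2.35, 2.20 and 2.18 to the control, and Tut1 and P53 KO did not differ from P53 KO beyond counting error (-0.02, -0.50 to 0.46). All isoforms of Sart1 with at least 10 reads were named by a read and not by an Ensembl transcript, so Sart1 could not be counted from plain transcripts. With reads without a gene name added, its log2 ratios were 1.81, 1.62 and 1.52.

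Prpf3, which binds the U4/U6 duplex, was at 27.6 CPM in the control, 31.9 in Tut1 KO, 15.5 in P53 KO and 47.7 in Tut1 and P53 KO. P53 KO was the low library, and Prpf3 was counted as higher in Tut1 and P53 KO against P53 KO (1.62, 1.16 to 2.10) but not in Tut1 KO against the control (0.21, -0.20 to 0.61). From plain Ensembl transcripts alone Prpf3 could not be tested. With reads without a gene name added, the first ratio was 1.39, and Prpf3 was also counted as higher in Tut1 and P53 KO against the control (1.06). Ddx23, the helicase that helps release U1 for U6, was at 51.8, 89.7, 81.9 and 116 CPM in the same order and passed a 2-fold difference in Tut1 and P53 KO against the control (1.17), though not with plain Ensembl transcripts alone (0.68). Txnl4a, a small U5 protein of the tri-snRNP, was at 121, 153, 92.2 and 174 CPM with no 2-fold difference in any comparison. Prpf4, Prpf6, Prpf31 and Usp39 were not counted as different in any of the 4 comparisons, at log2 ratios of -0.67 to 0.75.

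In the Prp19 complex, which stabilizes U6 in the active spliceosome, Prpf19, its ubiquitin ligase, stood apart from the other 4 members. It was at 64.8 CPM in the control, 14.3 in Tut1 KO, 6.44 in P53 KO and 23.0 in Tut1 and P53 KO, on 260, 43, 22 and 69 reads. The log2 ratio was -2.18 (-2.68 to -1.71) in Tut1 KO against the control, -3.33 in P53 KO against the control, and 1.84 (1.13 to 2.60) in Tut1 and P53 KO against P53 KO. With reads without a gene name added these were -2.05, -2.68 and 1.15, still counted as different. Snw1, Cdc5l, Bud31 and Plrg1 stayed within 0.58 of the control on the log2 scale.

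Among the DEAH helicases, Dhx38, the Prp16 of mammals that acts between the splicing steps, was at 6.73, 13.3, 11.4 and 14.3 CPM on 27, 40, 39 and 43 reads. It passed a 2-fold difference in Tut1 and P53 KO against the control (1.09, 0.36 to 1.84). It also passed in Tut1 KO with gene reads in place of TMM scaling or with reads without a gene name added, and in Tut1 KO and P53 KO with plain Ensembl transcripts alone. Dhx15, which helps take the spent spliceosome apart, was at 71.2 CPM in the control and 54.5, 52.97 and 67.7 CPM in the Cre libraries. Dhx16, which acts before the first step, had 16 to 27 reads per library, and its log2 ratio of -0.34 in Tut1 KO had an interval from -1.33 to 0.61.

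Other measures were read beside these ratios. Across the members, the Spearman correlation of the log2 ratio of Tut1 KO to the control with transcript length was 0.20 (42 genes) and with GC content -0.27, against 0.27 and -0.21 over all genes tested. In Tut1 and P53 KO against P53 KO these were 0.29 and 0.14 in the members, against -0.08 and -0.15 over all genes. These are descriptions across genes, which share the libraries. The ribosomal RNA gene CT010467.1 took 18.7% of gene reads in the control and 5.46% to 9.75% in the Cre libraries, while mitochondrial genes took 2.50% in the control and 5.77%, 5.37% and 4.82% in Tut1 KO, P53 KO and Tut1 and P53 KO. The summed CPM of 6 astrocyte markers was 438 in the control, 289 in Tut1 KO, 262 in P53 KO and 362 in Tut1 and P53 KO, with Gfap at 0 in all. That of 14 proliferation genes was 2995, 2427, 2678 and 2873. That of 8 oligodendrocyte-lineage markers was 381, 647, 747 and 517, with Mog at 0. Their part in the members' ratios was not tested.

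Other splicing lists were read for comparison in Tut1 KO against the control. Of 49 further spliceosome proteins 8 were higher and 3 lower (13.1% and 12.8% of all genes), with a median log2 ratio of 0.20. They included Dhx8, the Prp22 helicase that releases spliced mRNA (2.08), Srrm1 (1.57), Mfap1a (1.48), Xab2 (-2.20) and Cherp (-1.54). Of 17 snRNP assembly factors 3 were higher and 4 lower (against the same 13.1% and 12.8%), with a median of -0.24, among them Gemin4 at 31 reads in the control and 2 in Tut1 KO (-3.54, -6.65 to -1.56), Gemin7 (-1.33), Gemin5 (1.31), Wdr77 (-1.19) and Prmt5 (-1.15), the last a methyltransferase of Sm proteins with Wdr77 as its cofactor. Of 13 proteins of the minor spliceosome 10 could be tested, and Zcrb1 (-1.38) and Snrnp35 (-1.03) were lower. In Tut1 and P53 KO against P53 KO (4.07% of all genes higher and 3.0% lower) 1 of the 49 was higher and 0 lower, with 35 of 49 above 0, and 1 of the 17 assembly factors was higher and 0 lower. In P53 KO against the control (13.2% and 14.3%) 7 of the 49 were higher and 4 lower, and 2 of the 17 higher and 5 lower.

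The long reads also show which isoforms the members made. The 42 members had 204 isoforms, from 1 to 11 each, and 158 of these had at least 10 reads over the 4 libraries. Usage, meaning what percentage of a gene's reads an isoform held, was compared between 2 libraries by Fisher's exact test on reads, which compares libraries and not conditions, and called where the Benjamini-Hochberg false discovery rate was under 0.05 and usage differed by 10 points or more. In Tut1 KO against the control 8 of 138 member isoforms were called, against 8.58% of all isoforms tested, and in Tut1 and P53 KO against P53 KO 2 of 133, against 1.22%. In P53 KO against the control 9 of 138 were called (9.03% of all) and in Tut1 and P53 KO against the control 5 of 141 (6.44%). In the additive model over the 4 libraries (edgeR's diffSpliceDGE) 0 of 151 member isoforms were called for Tut1 status, as were 0.0% of all 21738. Of these, 222 had an unadjusted p under 0.05, of which 0 were members.

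Prpf31, which locks U4/U6 into the tri-snRNP, gained share of a retained-intron isoform in every Cre library. ENSMUST00000143231 (chr7:3629992-3631421, plus strand) had 42 of 142 reads in the control, 52 of 78 in Tut1 KO, 41 of 76 in P53 KO and 65 of 104 in Tut1 and P53 KO. Its share was thus 29.6% (95% Wilson interval 22.7 to 37.5) in the control and 66.7% (55.6 to 76.1), 53.9% (42.8 to 64.7) and 62.5% (52.9 to 71.2) in the Cre libraries, all above the control. The adjusted p of Fisher's exact test was 7.66e-06, 0.00784 and 1.66e-05 in that order. Tut1 and P53 KO exceeded P53 KO by 8.55 points, which was not called. This isoform runs past the Prpf31 5′ splice site shown above. With plain Ensembl transcripts alone, the difference was 22.5 points in Tut1 KO, down from 37.1, and 21.3 in P53 KO, where it was not called.

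Sf3b3, the large scaffold of SF3b, split the libraries in another way. ENSMUST00000212843 (chr8:110845319-110846727, minus strand), a retained-intron transcript, held 9.66% (6.34 to 14.5) of the reads in the control, 36.2% (28.4 to 44.7) in Tut1 KO, 41.8% (33.0 to 51.2) in P53 KO and 19.8% (13.8 to 27.7) in Tut1 and P53 KO. It was high in Tut1 KO and in P53 KO and low in the other pair. The difference was 26.5 points in Tut1 KO against the control (adjusted p = 4.07e-07, Fisher's exact test) and -22.0 points in Tut1 and P53 KO against P53 KO (0.0218). A variant of ENSMUST00000042012 took nearly all other reads, at 90.3%, 63.1%, 57.3% and 79.4%. The high pair is the pair in which Xist was read, and the part of that split in this result was not tested.

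**Figure D3:**
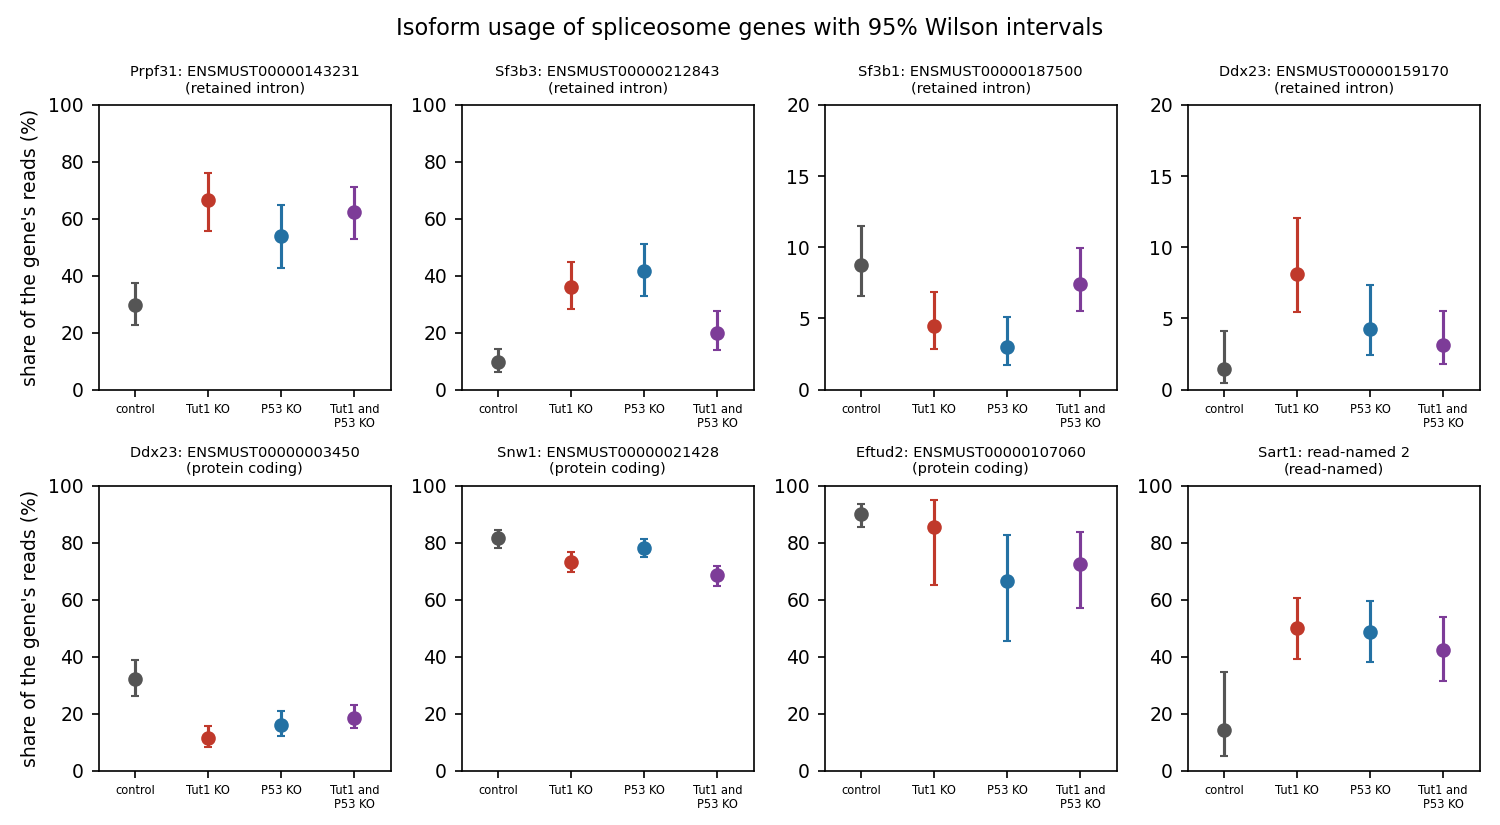
Share of the gene's reads (%) held by 8 isoforms in each of the 4 libraries, with 95% Wilson intervals, and with axes to 20% for Sf3b1 ENSMUST00000187500 and Ddx23 ENSMUST00000159170 and to 100% for the others. The Prpf31 retained-intron isoform is at 29.6% in the control and at 53.9% or more in every Cre library, while that of Sf3b3 is at 9.66% in the control and 19.8% in Tut1 and P53 KO and above 36% in the other pair.

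Ddx23 lost share of its annotated coding transcript. ENSMUST00000003450 held 32.2% (26.2 to 38.8) of Ddx23 reads in the control and 11.5%, 16.1% and 18.6% in Tut1 KO, P53 KO and Tut1 and P53 KO, with adjusted p of 2.22e-06, 6.17e-04 and 0.00725 by Fisher's exact test. An isoform named by a read made up the rest in large part, at 56.2% in the control and 66.2% to 69.6% in the Cre libraries. With plain Ensembl transcripts alone, the loss of ENSMUST00000003450 was -42.3 points in Tut1 KO and -26.5 in P53 KO, against -20.7 and -16.1 over all isoforms. The retained-intron isoform ENSMUST00000159170, chosen after its values were seen, had 3, 22, 12 and 11 reads, or 1.44% to 8.15%, and did not reach 10 points.

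Sart1 and Prpf3 exchanged isoforms named by a read. In Sart1 such an isoform had 3 reads of 21 in the control and 40 of 80, 40 of 82 and 30 of 71 in the Cre libraries, a gain of 35.7 points in Tut1 KO (adjusted p = 0.0269, Fisher's exact test) on few control reads. In Prpf3 one held 25.2% in the control, 5.21% in Tut1 KO, 15.1% in P53 KO and 9.79% in Tut1 and P53 KO. Their exons were not analysed here.

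Snw1, a partner of the Prp19 complex, lost share of its coding transcript ENSMUST00000021428, from 81.6% in the control to 73.4%, 78.3% and 68.6%. The loss passed 10 points in Tut1 and P53 KO against the control alone (-13.0 points), and was -4.09 points with plain Ensembl transcripts alone. Its retained-intron isoform ENSMUST00000223119 had 3, 14, 17 and 23 reads, and Sf3b1 ENSMUST00000187500 had 45, 19, 12 and 40 reads, or 8.72%, 4.44%, 2.96% and 7.45% of Sf3b1 reads. Neither was called, and both were chosen after their values were seen. Remaining calls fell on 1 isoform each of Eftud2 and Prpf4 in P53 KO against the control, and on further isoforms of Prpf31, Prpf3, Sart1 and Ddx23.

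Over all member reads, retained-intron transcripts held 0.588% (0.503 to 0.688) in the control, 1.03% (0.907 to 1.17) in Tut1 KO, 0.894% (0.783 to 1.02) in P53 KO and 1.04% (0.915 to 1.17) in Tut1 and P53 KO. The same class held 0.926%, 1.55%, 1.45% and 1.51% of the reads of all genes, so the members' share was below that of all genes in each library, and in both the control was below the 3 Cre libraries. Transcripts annotated for nonsense-mediated decay held 0.543%, 0.326%, 0.350% and 0.463% of member reads and 0.280%, 0.307%, 0.307% and 0.326% of the reads of all genes. The control was the highest library for the members and the lowest over all genes. These member reads numbered 143, 72, 85 and 110 and came from 5 or 6 members in a library, and the median over members was 0 in each. The interval of the control (0.461 to 0.639) overlapped that of Tut1 and P53 KO (0.384 to 0.558). The share of plain protein-coding transcripts was 71.8% in the control and 64.9% to 66.4% in the Cre libraries, while over all genes it was 55.7% and 57.4% to 61.8%. The median of this share over the 40 members with at least 20 reads in each library went the other way, from 86.4% in the control to 87.0%, 91.0% and 88.7%.

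Reads without a gene name were also placed in members' gene bodies. Counting only positions inside 1 annotated gene, and leaving out Sf3b5, there were 735 such reads in the control, 1321 in Tut1 KO, 1281 in P53 KO and 1372 in Tut1 and P53 KO. Per 100 named reads of the members this was 2.79, 5.98, 5.28 and 5.78, and per 100 named reads of all genes tested 8.81, 26.1, 24.1 and 22.8. All 3 Cre libraries were above the control, in the members and over all genes. Of 37 members with such entries 13 had a 95% interval above the control in all 3 Cre libraries, against 45.6% of 7746 genes with such entries.

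Sf3b3 was among them, with 32 reads in the control and 147, 141 and 145 in the Cre libraries, which is more than its named reads in each of these (130, 110 and 126). Snrnp70 had 116, 260, 203 and 318 and Cdc5l, the Myb-like protein of the Prp19 complex, 14, 45, 54 and 53. Snrpd2 went the other way, with 61, 14, 22 and 22. Positions were rounded to 1000 bases and carried no strand or exons, so whether these reads were intronic was not tested.

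**Figure D4:**
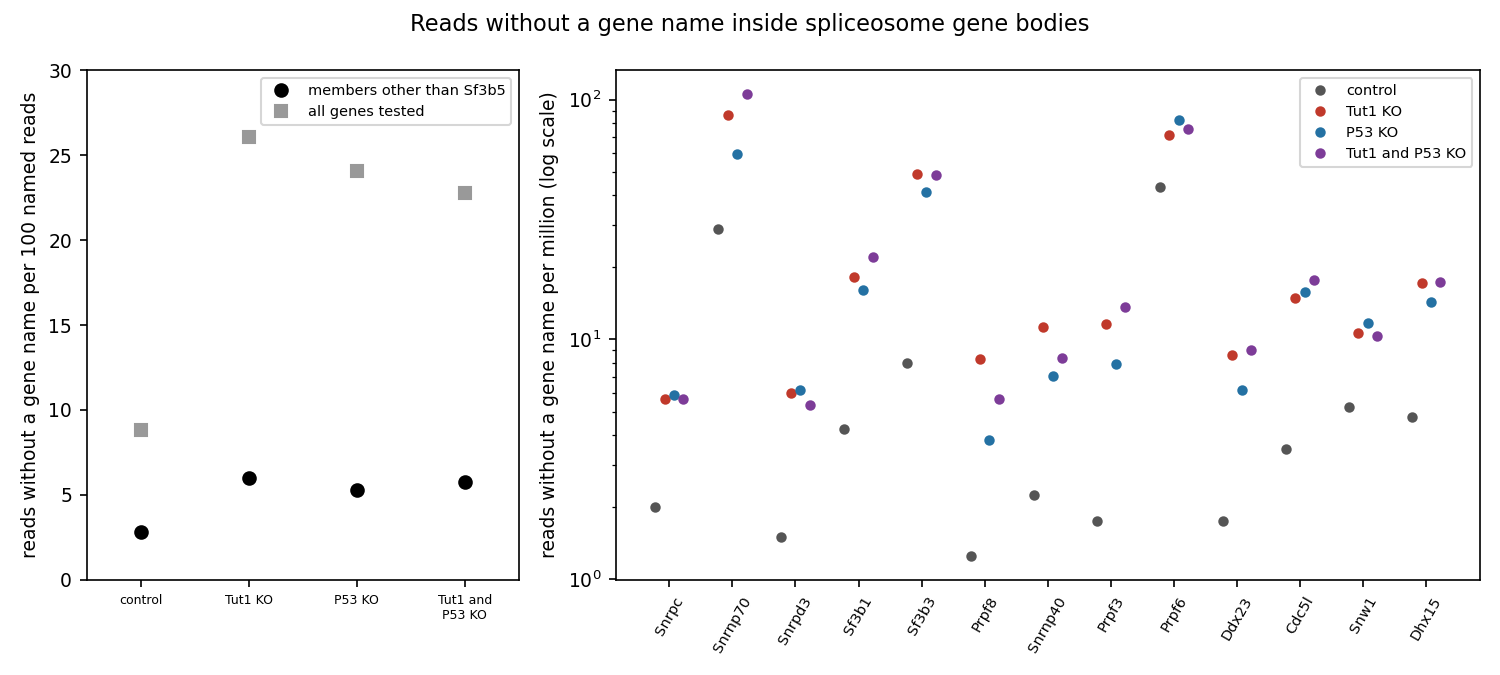
Left, reads without a gene name inside gene bodies per 100 named reads, for the members other than Sf3b5 (circles) and for all genes tested (squares) in each library. Right, on a log scale, such reads in CPM for the 13 members whose intervals were above the control in all 3 Cre libraries. The members go from 2.79 in the control to between 5.28 and 5.98, and all genes from 8.81 to between 22.8 and 26.1.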

How the data were processed

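Per the labels, RNA was extracted with Trizol and sequenced with a Nanopore cDNA-PCR kit, and mm10 was the genome build in the submitters' processing notes. The authors deposited 1 table of isoforms of raw read counts in whole numbers for each library, in which an entry names an Ensembl gene or a rounded chromosome position. The aligner and isoform caller behind this table are not given in the sources used here, nor is the handling of strand or multiple matches, so copies and overlapping genes can exchange reads. Members and lists were chosen with earlier results of these data known.

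Counts were summed per gene identifier, and symbols, transcript classes and exons came from GENCODE M21 (GRCm38, the same assembly as mm10). Entries without a gene (17.2% to 30.2% of reads) stayed out of library sizes and tests. CPM is per 1e6 gene reads scaled by TMM. Tests were run with edgeR 4.0.16 and DESeq2 1.42.0 in R 4.3.3, on genes passing edgeR's default expression filter, and with scipy 1.17.1 in Python 3.11.15. Usage was compared for isoforms of 10 or more reads over both libraries, where the gene had 20 or more reads in each library and 2 or more isoforms. Intervals are exact 95% (CPM and ratios) or Wilson 95% (shares), and SEs of fitted changes were derived from the F statistic. Pseudogene copies were found with minimap2. The fits, the ratio rule and the usage tests were run on simulated counts with little or no spread between libraries. This checks the code and does not give error rates for these data.

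Named members are those counted as different in any of the 4 comparisons, the member of each role with the largest ratio of Tut1 KO to the control among those with at least 20 reads in each library, and isoforms called in usage, at most 3 per gene. In the other splicing lists up to 5 genes with the largest ratios were named. Others named were chosen after their values were seen. Alternatives were RLE size factors, gene reads without TMM, no filter, DESeq2, plain Ensembl transcripts alone, a minimum of 50 reads, 20 points, no covariate, medians over members and, chosen after the data were seen, the sum of named reads and reads without a gene name in the gene body.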

Additional observations from a re-analysis of the deposited data

Results flagged for a closer look

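The comparison of Tut1 labels was available in cells with Trp53 (Tut1 KO against the control) and in cells labelled as lacking it (Tut1 and P53 KO against P53 KO). Members counted as different in both with opposite signs are given here, and the difference itself was not tested, since each library is the only one of its group. For Eftud2 the log2 ratio in the first comparison minus that in the second was -4.05, and for Prpf19 it was -4.02. With reads without a gene name added, Eftud2 was no longer counted as different in the second comparison. Both were low in all 3 Cre libraries. Prpf19 was lowest in P53 KO, while Eftud2 had 21 reads in both Tut1 KO and P53 KO. The first comparison contains the Cre delivery that the second does not. The comparisons also differ in Trp53 label and cross the Xist split in opposite directions. The part of each of these was not tested. For Sf3b3 the difference between the comparisons was 48.5 points for ENSMUST00000212843 and -49.4 points for the variant of ENSMUST00000042012.

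Reads without a gene name inside members' gene bodies are data that the gene comparisons do not use. In CPM they were above the control, by a log2 ratio of 1.26 in Tut1 KO, 1.03 in P53 KO and 1.32 in Tut1 and P53 KO. Over all genes tested the same ratios were 1.47, 1.38 and 1.22.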

How the results depend on the processing

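Counts of members that differed between libraries with RLE size factors, with gene reads in place of TMM and without the filter were within 1.5 times those given, as were the counts of 0 in the models with DESeq2 and without the covariate. With plain Ensembl transcripts alone 35 members could be tested. Then 2 members (Eftud2 and Prpf19) and not 4 differed in Tut1 and P53 KO against P53 KO, and 5 and not 8 in Tut1 and P53 KO against the control. In usage, plain transcripts alone gave 3 member isoforms in Tut1 KO against the control, 2 in P53 KO against the control and 0 in Tut1 and P53 KO against P53 KO. At 20 points there were 5 in P53 KO against the control and 1 in Tut1 and P53 KO against the control. The median share of retained-intron transcripts over members was 0 in each library. None of the ratios of members counted as different above, and none of the usage differences called, changed direction under the alternatives that gave a value. Sf3b3, not counted there, turned from lower to higher in Tut1 KO and P53 KO with plain transcripts. It also turned to higher in both with reads without a gene name added. Chosen after the data were seen, positions inside any gene gave log2 ratios of reads without a gene name of 1.27, 1.04 and 1.33. Gene reads in place of TMM gave 14 members with both libraries labelled Tut1-deleted above both others (17.9% of all genes) and 1 below (10.8%). Adding reads without a gene name kept every member counted as different except Eftud2 in Tut1 and P53 KO against P53 KO. No paired analysis was possible because each group has 1 library. Leaving out a library was not possible either, since it would leave the models no residual degrees of freedom. Low read numbers limit what can be seen for Sf3a2, Dhx16, Dhx38, Sart1 and, in the Cre libraries, Eftud2.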
